A study of Mus musculus with 12 samples.

Results

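Mono-SQ is one of 4 ethylene glycol derivatives of squalene, the hydrocarbon from which cells build sterols, and its prefix is read here as 1 glycol unit. The comparison described here set the 2 arrays of 3T3-L1 cells given mono-SQ against the 2 arrays of untreated control cells. These were chosen by their labels from a series of 12 Clariom S mouse arrays in 6 groups of 2. The other groups, used below where they bear on mono-SQ, were given squalene itself (SQ) or its derivatives tetra-SQ, tri-SQ and di-SQ. Per the labels, mono-SQ was present at 5 µM for 14 days and the cells were mono-SQ-induced, and the controls received no treatment and no induction over the same 14 days. The treatment protocol describes a hormone medium with isobutylmethylxanthine, dexamethasone and insulin, followed by insulin medium, each with or without a compound, so whether the controls received the hormones cannot be settled from the labels. All groups are the same cell line, a single mouse preadipocyte line grown in plate wells, and a vehicle is not named in the labels. The design text speaks of duplicate RNA samples per group and not of separate cultures, so p-values measure only the spread between these arrays, which may be technical.

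3T3-L1 cells are fibroblast-like cells that, under a hormone mix, switch on the nuclear receptor PPAR gamma and the C/EBP factors and become fat cells. Mature fat cells express droplet coat proteins, lipases, the insulin-responsive glucose transporter and enzymes of fatty acid and triglyceride synthesis, while serum or fresh medium briefly switches on immediate early genes such as Egr1 in many cell types. Squalene lies in the middle of cholesterol synthesis, between farnesyl diphosphate and lanosterol, and the pathway's enzymes are under the control of sterol-sensing SREBP factors.

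Signals are the authors' normalized log2 values, in which 1 unit is a doubling, for 22206 probe sets. Each mono-SQ array was set against the mean of both controls, as was the mean of the mono-SQ arrays. The 2 mono-SQ arrays did not resemble each other as closely as the 2 controls did. Between mono-SQ array 2 and mono-SQ array 1, 2302 probe sets (10.4%) differed by at least 1 log2 unit, against 53 (0.239%) between the controls. Mono-SQ array 1 differed from the control mean by that much at 434 probe sets (1.95%) and mono-SQ array 2 at 2347 (10.6%). Across probe sets, which are not independent replicates, array 1 correlated with the controls at 0.993 and 0.993, array 2 at 0.978 and 0.978, and the controls with each other at 0.997. The upper quartile of the signals was 9.11 and 9.04 in the mono-SQ arrays, against 9.05 and 9.05 in the controls. The median of 5222 negative control probe sets was 6.18 and 6.51 in the mono-SQ arrays, against 6.26 and 6.27 in the controls, and the mean of the hybridisation spikes was 10.48 and 10.14, against 10.54 and 10.49. Array 2 thus had the highest negative control median and the lowest spike mean of these 4 arrays. The part of either in the differences below was not tested.

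No probe set passed the test of mono-SQ against control. With limma over all 12 arrays, 0 of 22206 probe sets (0%) had an adjusted p below 0.05, the smallest adjusted p was 0.837, and 1310 had an unadjusted p below 0.05 (629 higher and 681 lower in mono-SQ). A fit with a term for what the second compound arrays share, which sets mono-SQ against control near the level of the first arrays, also called 0 probe sets (0%). Its smallest adjusted p was 0.429, and 2293 probe sets had an unadjusted p below 0.05, of which 1244 were higher and 1049 lower. The differences below are therefore descriptions of 2 arrays against 2, and a difference that missed the test is not shown to be absent.

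The probe sets were sorted by what each mono-SQ array showed, with a limit of 1 log2 unit (2-fold) from the control mean. In both arrays the same way, 87 probe sets were higher (0.392%) and 34 were lower (0.153%). In array 2 only, meaning at least 1 unit there and under 0.5 in array 1, 767 were higher (3.45%) and 945 lower (4.26%). Most of either set also passed the limit the same way in the second array of each other compound, with counts given below. In array 1 only, by the reverse of that rule, 101 were higher (0.455%) and 55 lower (0.248%). A graded difference, past 1 unit in array 2 and 0.5 to under 1 unit the same way in array 1, was seen at 248 probe sets that were higher and 168 that were lower. Opposite differences past the limit were found at 15 probe sets, and 19561 (88.1%) stayed under the limit in both arrays. In the plot of array 2 against array 1, the both-array, single-array and opposite classes show as separate blocks, which the limits fix. The graded classes are drawn in grey with the rest.

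**Figure D1:**
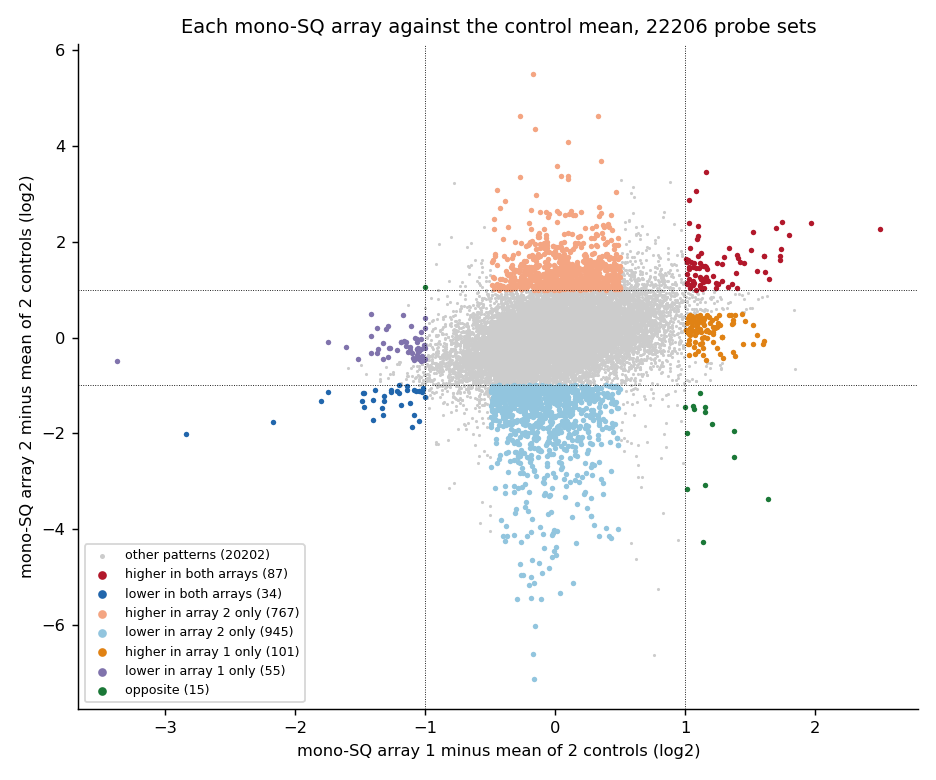
Each point is 1 of 22206 probe sets; the x axis is mono-SQ array 1 minus the mean of 2 controls and the y axis is mono-SQ array 2 minus the same mean (log2), with dotted lines at 1 unit. The cloud is taller than it is wide, with 767 and 945 probe sets past the limit in array 2 only, against 101 and 55 in array 1 only.

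Ribosomal protein genes were the most frequent of the listed genes in the set that was higher in both arrays. Of its 87 probe sets, 84 carried 1 gene symbol, and 65 of these had a named gene and a level at or above the median of all probe sets. Of the 65, 13 were on the list of cytosolic ribosomal proteins. Over the 87, the median difference was 1.14 in array 1 and 1.46 in array 2. All 87 had both mono-SQ arrays above both controls, which the limit in each array all but fixes; over all probe sets 5015 (22.6%) did, and 5423 (24.4%) had both below. Rpl6, a protein of the large ribosomal subunit (chr5:121204501-121209241, GRCm38), had log2 signals of 15.34 and 15.76 in mono-SQ arrays 1 and 2, against 13.44 and 13.31 in control arrays 1 and 2. Its mean was 15.55 ± 0.30 in mono-SQ and 13.38 ± 0.09 in control (SD, n = 2 each), a difference of 2.17 ± 0.66 (SE) with a 95% interval of 0.68 to 3.67 (limma, adjusted p = 0.837). Both mono-SQ arrays of Rpl6 lay over 1.5 units above the controls, with no overlap. Rps9, of the small subunit (chr7:3703954-3706897), had 12.16 and 12.49 in mono-SQ, against 10.30 and 10.42 in control. Rpl10a, of the large subunit (chr17:28328471-28331033), had 14.81 and 15.13 in mono-SQ, against 13.45 and 13.37 in control. For both genes array 2 was the higher of the mono-SQ arrays and the groups did not overlap.

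Over the whole list, 59 of 76 cytosolic ribosomal protein genes could be measured through a probe set with their symbol alone. All 59 were higher than the control mean in array 1 and all 59 in array 2, with medians of 0.76 and 0.98, where the median of 21154 genes was -0.02 in array 1 and 0.00 in array 2. Of the 59, 43 were at least 0.5 higher in each array, 13 (22.0%) were past 1 unit in both, against 84 (0.397%) of all genes, and 16 were graded. Beyond Rpl6, Rps9 and Rpl10a, those past the limit in both were Rpl29, Rpl35, Rps21, Rpl19, Rpl15, Rpl21, Rps19, Rps13, Rpl11 and Rpl18. Rpl35 had 15.42 and 15.85 in mono-SQ, against 14.32 and 14.29 in control. Rps19 had 13.18 and 13.18, against 12.08 and 11.93. Rpl18, with the smallest difference of these, had 14.72 and 14.64, against 13.65 and 13.55. Both Rps19 arrays of mono-SQ had the same signal, and in Rpl18 array 1 was the higher. The probe set read here as Rpl29 (15.32 and 15.41 in mono-SQ, against 13.70 and 13.73 in control) has an identifier of chromosome 1, where RefSeq places a pseudogene with Rpl29 as a synonym, while the gene lies on chromosome 9. The other Rpl29 probe set had 14.67 and 14.74 in mono-SQ, against 13.66 and 13.77 in control, and so missed the limit in array 1. Rpl29 is thus past the limit in both arrays only with the chromosome 1 probe set, alone or averaged in. Ribosomal protein genes have many near-identical processed copies, so the assignment of their signals to 1 locus is uncertain throughout.

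**Figure D2:**
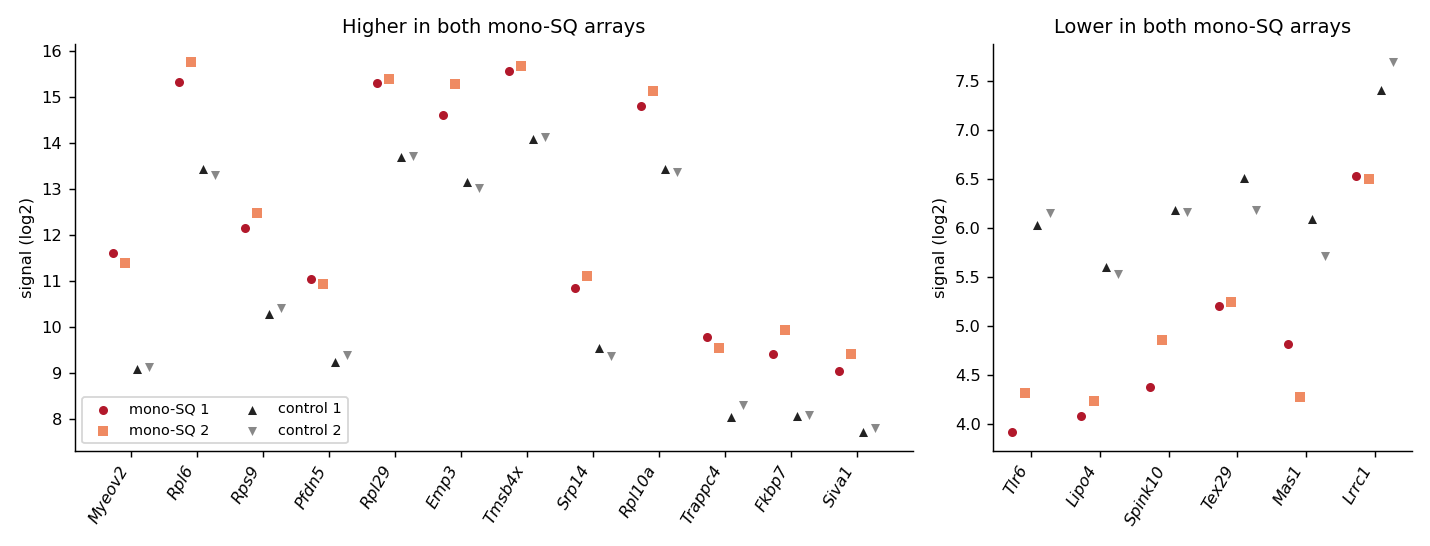
Log2 signals of the named probe sets that were higher (left, 12 genes) or lower (right, 6 genes) in both mono-SQ arrays, with a symbol for each of the 4 arrays; levels of different genes are not comparable. The genes were chosen for groups that do not overlap, and the higher ones span from Myeov2 (11.62 and 11.39 in mono-SQ, against 9.10 and 9.14 in control) to Siva1 (9.06 and 9.43, against 7.72 and 7.80).

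Ribosomal protein transcripts commonly begin with a run of pyrimidines, the TOP element, through which growth signals set their translation. The windows are shown because these genes were higher together in both arrays, and they come from the RefSeq promoter table for GRCm38.p6, which held 11 of the 13 genes. Runs of 8 or more C or T in a row were searched on the transcribed strand from 25 bases before to 25 bases after the annotated start. At any annotated start of a gene, such a run was found in 7 of the 11 (63.6%), in 22 of 42 measured ribosomal protein genes in the table (52.4%) and in 3589 of 16207 genes of the array (22.1%). Over all genes of the higher-in-both set it was 16 of 62 (25.8%). Capitals mark the part of the run inside the searched bases, in windows of 30 bases printed in the direction of transcription; the runs of Rpl10a and Rpl11 go on past the searched bases, in lower case; the windows lie at chr17:28328571-28328600 (Rpl10a, plus strand), chr4:136053360-136053389 (Rpl11, minus), chr14:18270968-18270997 (Rpl15, minus), chr7:45718062-45718091 (Rpl18, plus), chr11:98026903-98026932 (Rpl19, plus), chr2:39005115-39005144 (Rpl35, minus) and chr7:3704024-3704053 (Rps9, plus).
Rpl10a: aaagcgctctgCCTTCTTTccggtttccgc
Rpl11: ggccggaagTCTCCCTCTCTCttcctgttc
Rpl15: gagaaagCCTTCTTCCTTTCCTCTggcggc
Rpl18: tcgcaggccgCTCTTTCCCCgcccactccg
Rpl19: ggggcttgggCTCTCCCCTTCgcagataat
Rpl35: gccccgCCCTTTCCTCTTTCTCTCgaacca
Rps9: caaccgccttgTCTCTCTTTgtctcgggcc
The motif CGGAAG, searched on both strands over 300 bases, was in 28 of the 42 ribosomal protein promoters (66.7%), in 7 of the 11 (63.6%) and in 3896 of all 16207 (24.0%). The capitals of Rpl10a and Rpl11 began 17 and 13 bases after the annotated start. The run of 11 bases in Rpl19 began 11 bases before it. The printed runs are therefore not all at the start of the transcript, where a TOP element lies. A match is a description of letters and shows no site in use.

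The other genes named from the higher-in-both set have varied roles. Myeov2, an older name for the COP9 signalosome subunit Cops9 (chr1:92637145-92641985), had the largest difference of the genes named from the set, with 11.62 and 11.39 in mono-SQ, against 9.10 and 9.14 in control (2.38 ± 0.85, SE, 95% interval 0.46 to 4.31, limma adjusted p = 0.837). The prefoldin subunit Pfdn5, which passes unfolded actin and tubulin to a chaperonin, had 11.05 and 10.95, against 9.25 and 9.40. Srp14, of the signal recognition particle that brings secretory proteins to the endoplasmic reticulum, had 10.86 and 11.11, against 9.54 and 9.37. In these 3 genes both mono-SQ arrays agreed to within 0.3 units and neither overlapped the controls. The actin monomer binder Tmsb4x had 15.57 and 15.68 in mono-SQ, against 14.10 and 14.14 in control. Trappc4, part of a vesicle tethering complex, had 9.79 and 9.54, against 8.05 and 8.30. The endoplasmic reticulum prolyl isomerase Fkbp7 had 9.42 and 9.95, against 8.08 and 8.09. Emp3, a membrane protein with 4 spans, had 14.62 and 15.30 in mono-SQ, against 13.16 and 13.04 in control, and the apoptosis factor Siva1 had 9.06 and 9.43, against 7.72 and 7.80. In Emp3, Fkbp7 and Siva1 array 2 stood further from the controls than array 1.

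Among 29 translation factors, 25 were higher in array 1 and 20 in array 2, with medians of 0.30 and 0.40. Past the limit in both were 3 (10.3%), against 0.397% of all genes. These were Btf3, a subunit of the nascent chain complex (14.18 and 14.49 in mono-SQ, against 12.94 and 12.93 in control), Tpt1, the translationally controlled tumour protein (15.96 and 16.55, against 14.84 and 14.88), and Eef1b2, which reloads elongation factor 1A with GTP (15.99 and 16.11, against 14.97 and 14.89). Of 30 proteasome subunits, 25 were higher in array 1 and 19 in array 2, with medians of 0.50 and 0.38. The core subunit Psmb2 had 10.91 and 10.81 in mono-SQ, against 9.66 and 9.69 in control, and Psma7 and Psmc1 were graded. A few members of other lists also lay past the limit in both arrays. The glutathione peroxidase Gpx1 had 12.37 and 12.56 in mono-SQ, against 11.37 and 11.31 in control. The linker histone gene Hist1h1c had 10.79 and 11.10, against 9.64 and 9.92. Of 49 mitochondrial ribosomal proteins 2 (4.08%) were past it. Mrpl33 had 11.60 and 11.32, against 10.36 and 10.19, and Mrps15 had 5.41 and 5.45, against 4.47 and 4.23, below the negative control medians in all 4 arrays. In Gpx1, Hist1h1c and Mrpl33 both mono-SQ arrays were about 1 unit above the controls. The chemokine Ccl2, which draws monocytes, had 8.90 and 10.75 in mono-SQ, against 7.82 and 7.93 in control (1.95 ± 1.06, SE, 95% interval -0.44 to 4.34, limma adjusted p = 0.837), so that array 2 was well above array 1 and array 1 above both controls.

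The genes of the higher-in-both set were short. Their median span in RefSeq was 6.26 kb (78 of 87 probe sets with a gene in the table), against 24.3 kb for probe sets at or above the median level and 18.3 kb for all. The set's median level in the higher group was 11.44, well above the 5.56 of all probe sets. Other sets had short genes too. The median span was 10.8 kb for the set lower in both arrays and 10.2 kb for that higher in array 1 only. It was 16.7 kb for the set lower in array 1 only, and 26.8 and 29.0 kb for those higher and lower in array 2 only. The part of gene length and signal strength in the pattern was not tested.

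The set that was lower in both arrays was smaller and lay near the background. Of 34 probe sets, 6 had a named gene and reached the median level in the higher group, and the median level of the set was 5.09, below the negative control medians. Tlr6, a cell surface partner of Tlr2 in sensing bacterial lipopeptides (chr5:64953092-64970942), had 3.92 and 4.32 in mono-SQ, against 6.03 and 6.15 in control (-1.97 ± 0.38, SE, limma adjusted p = 0.837). Lipo4, a lipase family member, had 4.08 and 4.24, against 5.60 and 5.53 (-1.40 ± 0.24, SE, limma adjusted p = 0.837), the nearest of the named genes to the threshold. Spink10, named as a serine peptidase inhibitor, had 4.38 and 4.86, against 6.19 and 6.17. In these 3 genes, and in Mas1, all 4 arrays lay below their negative control medians, so they may not be signal. Mas1, a receptor of the angiotensin system, had 4.82 and 4.28 in mono-SQ, against 6.09 and 5.72 in control. Tex29 had 5.21 and 5.25, against 6.51 and 6.19, below those medians in all but control array 1. Lrrc1, a leucine-rich repeat protein, had 6.53 and 6.50, against 7.41 and 7.69, and its levels lay above the negative control medians in all but mono-SQ array 2, where 6.50 compares with 6.51. The count of 34 depended on the controls used and on low signals: it was 61 and 66 with 1 control left out and 4 after a filter on low signals.

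Respiratory chain genes differed between the mono-SQ arrays. Of 52 subunits of the respiratory chain and ATP synthase, 51 were higher than the control mean in array 1, with a median of 0.82, whereas 13 were higher and 38 lower in array 2, with a median of -0.35. By pattern, 10 (19.2%) were higher in array 1 only and 5 (9.62%) lower in array 2 only, against 0.425% and 4.32% of all genes. Ndufa6, of complex I (chr15:82350139-82354291), had 12.41 and 10.68 in mono-SQ arrays 1 and 2, against 10.79 and 10.83 in control. Ndufa4, which sits in cytochrome oxidase, had 15.03 and 13.38, against 13.52 and 13.50. Ndufb5, of complex I, had 11.17 and 10.30, against 9.84 and 9.83. In the first 2 genes array 1 alone was high and array 2 lay just under both controls; in Ndufb5 both mono-SQ arrays were above the controls. Ndufs1, the largest subunit of complex I, was unlike these, with 11.67 and 9.94 in mono-SQ, against 11.69 and 11.70 in control. In the fit with a term for the second compound arrays, Ndufa6 differed from control by 1.56 ± 0.50 (SE, 95% interval 0.46 to 2.67, limma adjusted p = 0.429), compared with 0.74 ± 1.00 for the group means (limma adjusted p = 0.909).

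Array 1 was also the highest of the 4 arrays for Mpc1, Mtch2 and Mpc2. Mpc1, a subunit of the mitochondrial pyruvate carrier (chr17:8283787-8297667), had 14.66 and 12.99 in mono-SQ, against 13.05 and 13.06 in control. Mtch2, an outer membrane protein, had 14.41 and 13.15, against 12.89 and 12.89. Mpc2, the partner of Mpc1, had 9.91 and 8.64, against 8.05 and 8.10. Array 2 was level with the controls for Mpc1 and 0.26 and 0.56 above their mean for Mtch2 and Mpc2. Of 49 mitochondrial ribosomal proteins, 45 were higher in array 1 (median 0.44) and 18 in array 2 (median -0.18). Few genes were lower in array 1 only: Zfp125 had 5.03 and 6.24 in mono-SQ, against 6.24 and 6.47 in control, and the unconventional myosin Myo18a had 5.91 and 7.40, against 7.18 and 7.25. Sfi1, a centrosome protein, had 6.55 and 7.47, against 7.49 and 7.85, and Zufsp, a ubiquitin peptidase now named Zup1, had 6.31 and 7.29, against 7.50 and 7.42. Opposite differences were led by 4 genes that fat cells express. Sncg, gamma-synuclein, had 12.41 and 7.01 in mono-SQ, against 11.31 and 11.23 in control. The lipoprotein component Apoc1 had 11.76 and 6.75, against 10.09 and 10.15. The adipokine chemerin (Rarres2) had 12.69 and 8.53, against 11.74 and 11.62, and G0s2, an inhibitor of adipose triglyceride lipase, had 10.80 and 6.58, against 9.65 and 9.65. In these 4 genes array 1 was the highest and array 2 the lowest of the 4 arrays, and their group means would hide both. The one gene named the other way was the calcium channel subunit Cacnb2, with 6.98 and 9.03 in mono-SQ, against 8.02 and 7.95 in control.

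Fat cell and lipid genes were low in array 2 and near control in array 1. Of 30 lipid droplet and mature adipocyte genes, 28 were lower in array 2 with a median of -2.26, while 22 were higher in array 1 with a median of 0.17. By pattern 16 (53.3%) were lower in array 2 only, against 4.32% of all genes. The insulin-responsive glucose transporter Slc2a4 (chr11:69942286-69948216) had 11.92 and 6.67 in mono-SQ, against 12.13 and 12.08 in control (-2.81 ± 2.60, SE, 95% interval -8.67 to 3.05, limma adjusted p = 0.878). The droplet coat protein Plin1 (chr7:79721164-79732904) had 15.09 and 10.28, against 15.29 and 15.27, and the hormone-sensitive lipase Lipe had 15.67 and 11.09, against 15.80 and 15.79. For each, array 1 lay within 0.2 units of the control mean and array 2 was over 4 units below it. In the fit with a term for the second compound arrays Plin1 differed by -0.26 (95% interval -0.69 to 0.18, limma adjusted p = 0.672). In bulk RNA, fewer fat cells and less of these transcripts per fat cell cannot be told apart. The adipocyte markers had a summed log2 signal of 146.0 and 111.9 in the mono-SQ arrays, against 143.3 and 143.6 in the controls, with 9 of 10 above the negative control median in every array. The preadipocyte fibroblast markers summed to 130.9 and 135.3 in mono-SQ, against 130.1 and 129.4 in control, with 8 of 10 above it in every array. Dlk1, a surface protein of preadipocytes, had 16.45 and 18.07 in mono-SQ, against 16.61 and 16.57 in control.

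Few markers of other cell types lay above the negative control median. Macrophage markers lay above the negative control median at 0 and 1 of 10 in the mono-SQ arrays, against 1 and 1 in the controls, and endothelial markers at 0 of 10 in all 4. Of the osteoblast markers 4 and 3 of 10 lay above it in mono-SQ, against 4 and 4 in control. Among them the phosphatase Alpl, also present in fat-forming cells, had 9.49 and 4.79 in mono-SQ, against 9.71 and 9.76 in control, and the secreted phosphoprotein Spp1 had 16.95 and 17.80, against 16.49 and 16.55. Chondrocyte markers lay above it at 2 of 9, among them the factor Sox9 (10.33 and 11.40 in mono-SQ, against 10.08 and 10.01 in control), and muscle markers at 1 of 10 in every array. The part of the cell make-up in the array 2 differences was not tested.

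**Figure D3:**
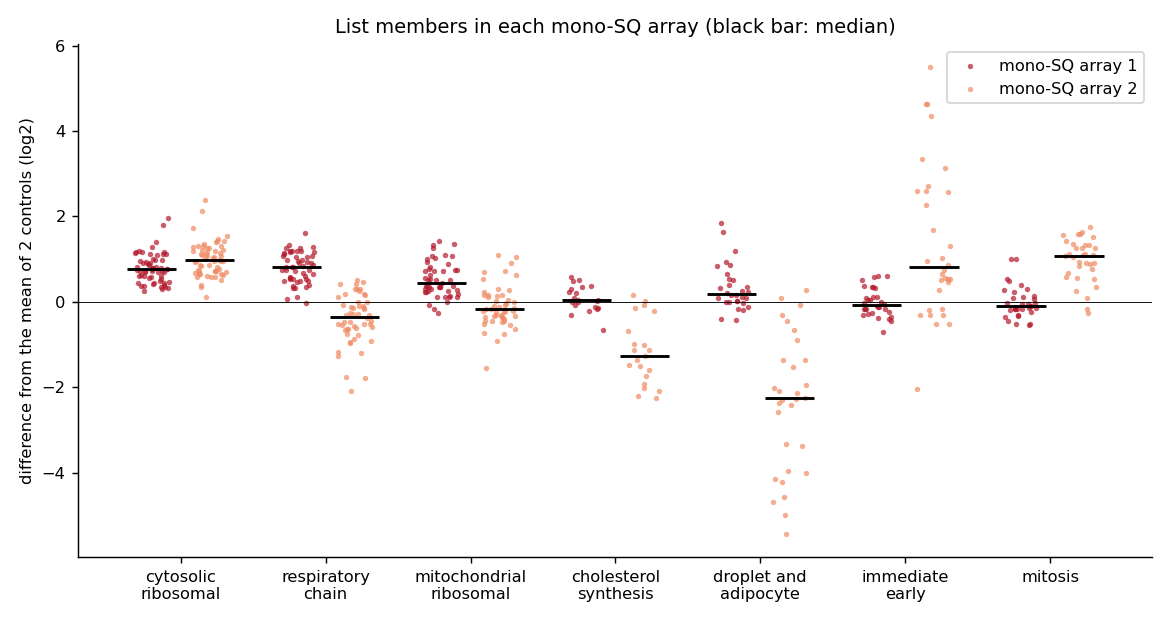
Each point is a gene of 1 of 7 lists, as mono-SQ array 1 (dark) or array 2 (light) minus the mean of 2 controls (log2 on the y axis), and black bars are medians. The ribosomal list is above 0 in both arrays (medians 0.76 and 0.98), while the droplet and adipocyte list is near 0 in array 1 (0.17) and low in array 2 (-2.26).

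Lists of fat synthesis, lipolysis and adipogenic factors also had lower medians in array 2 than in array 1. Of 24 fatty acid and triglyceride synthesis genes, 21 were lower in array 2 (median -1.67) and 13 in array 1 (median -0.04). By pattern 16 (66.7%) were lower in array 2 only, against 4.32% of all genes. The acyltransferases that close triglyceride synthesis were among them: Dgat2 had 13.36 and 9.26 in mono-SQ, against 13.37 and 13.40 in control, and Dgat1 had 11.72 and 8.10, against 11.79 and 11.76. Array 1 matched the controls to within 0.1 units for both. Of 17 lipolysis genes, 7 (41.2%) were lower in array 2 only, with medians of 0.06 in array 1 and -0.97 in array 2. Pde3b, the phosphodiesterase through which insulin restrains lipolysis, had 13.50 and 8.55, against 13.72 and 13.68, and the triglyceride lipase Pnpla2 had 15.85 and 12.12, against 16.28 and 16.23. Of 21 adipogenic transcription factors, 8 (38.1%) were lower and 2 (9.52%) higher in array 2 only, against 4.32% and 3.48% of all genes. Cebpa, a master factor of fat cells, had 10.84 and 7.35 in mono-SQ, against 10.61 and 10.63 in control. The liver X receptor Nr1h3 had 10.73 and 6.86, against 10.55 and 10.66, and Klf15 had 8.32 and 6.15, against 8.75 and 8.79. All 3 were at least 2 units below control in array 2. The preadipocyte and anti-adipogenic list had medians of 0.08 and 0.10 over 19 genes. Its member Ly6a, the progenitor antigen Sca-1, had 11.59 and 11.38 in mono-SQ, against 10.39 and 10.52 in control, above both controls in both arrays.

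Sterol genes, the pathway in which squalene itself stands, were near control in array 1. Over 21 cholesterol synthesis genes the median was 0.04 in array 1 and -1.26 in array 2. Of these, 13 (61.9%) were lower in array 2 only, against 4.32% of all genes. The list was as low in the second arrays of the other compounds. Its medians there were -1.31 with SQ, -1.42 with di-SQ, -1.56 with tri-SQ and -1.37 with tetra-SQ. Mvd, which makes isopentenyl diphosphate, had 10.21 and 8.50 in mono-SQ, against 10.53 and 10.51 in control. Cyp51, the lanosterol demethylase, had 13.05 and 10.84, against 13.06 and 13.02, and Dhcr7, of the last step to cholesterol, had 11.94 and 9.64, against 11.97 and 11.82. Array 2 was the lowest of the 4 arrays for each. Of 15 sterol sensing and uptake genes 4 (26.7%) were lower in array 2 only (medians -0.09 and -0.56). Among them were the SREBP retention protein Insig1 with 15.57 and 13.46, against 15.60 and 15.65, and the lipoprotein receptor Scarb1 with 12.93 and 9.99, against 13.05 and 12.99. Of 15 genes of cholesterol efflux and liver X receptor targets 5 (33.3%) were lower in array 2 only (medians -0.09 and -0.92). The exporter Abca1 had 13.37 and 11.26 in mono-SQ, against 13.56 and 13.57 in control.

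Lists of fuel use and insulin signalling also had lower medians in array 2 than in array 1. Branched-chain amino acid breakdown had a median of -1.22 in array 2, with 10 of 22 genes (45.5%) lower there only, against 4.32% of all genes. Its members Dbt and Bcat2 had 10.99 and 7.98, and 11.09 and 8.25, in mono-SQ, against 11.24 and 11.15, and 11.46 and 11.30, in control. Fatty acid oxidation had medians of 0.20 and -0.76 over 22 genes, with the carnitine acyltransferase Cpt2 at 10.19 and 7.80, against 10.44 and 10.33. For the citric acid cycle and pyruvate entry the medians were 0.25 and -0.68 over 24 genes, with pyruvate carboxylase (Pcx) at 14.96 and 11.69, against 15.27 and 15.25. Glycolysis had medians of -0.06 and -0.60 over 17 genes, and its regulator Pfkfb3 had 11.25 and 7.80, against 10.91 and 11.13. Insulin signalling had medians of -0.10 and -0.48 over 20 genes, 8 of them (40.0%) lower in array 2 only. Each gene named for these pathways had array 1 within 0.4 units of the control mean and array 2 over 2 units below it.

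The genes furthest below control in array 2 were not all lipid genes. Enpp2, which encodes autotaxin, the secreted enzyme that makes lysophosphatidic acid (chr15:54838901-54952789), had 19.20 and 12.25 in mono-SQ, against 19.35 and 19.37 in control (-3.64 ± 3.51, SE, 95% interval -11.54 to 4.27, limma adjusted p = 0.88). Peg10, an imprinted gene of retrotransposon origin, had 16.45 and 10.02, against 16.64 and 16.60, and the annexin Anxa8 had 14.96 and 9.10, against 15.09 and 15.14. Apol6, of the apolipoprotein L family, had 12.60 and 7.23, against 12.56 and 12.57. The cytochrome P450 gene Cyp2ab1 had 11.51 and 6.16, against 11.60 and 11.64, and the adhesion receptor Adgrf5 had 10.64 and 5.48, against 10.90 and 10.97. All 6 had array 1 within 0.3 units of the control mean, and array 2 over 5 units below it. The imprinted growth factor Igf2 had 11.80 and 7.32 in mono-SQ, against 11.46 and 11.46 in control, although the 15 imprinted genes measured divided evenly. In array 2 only, 4 (26.7%) were higher and 4 (26.7%) lower, against 3.48% and 4.32% of all genes. Haptoglobin (Hp), an acute phase protein that fat cells secrete, had 11.76 and 7.96, against 11.58 and 11.45. Among 34 glutathione and NRF2 genes 10 (29.4%) were lower in array 2 only, as was heme oxygenase (Hmox1, 18.24 and 15.62, against 18.28 and 18.32). Of 19 clock genes 5 (26.3%) were, such as Nr1d1 (10.31 and 8.52, against 10.52 and 10.52).

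**Figure D4:**
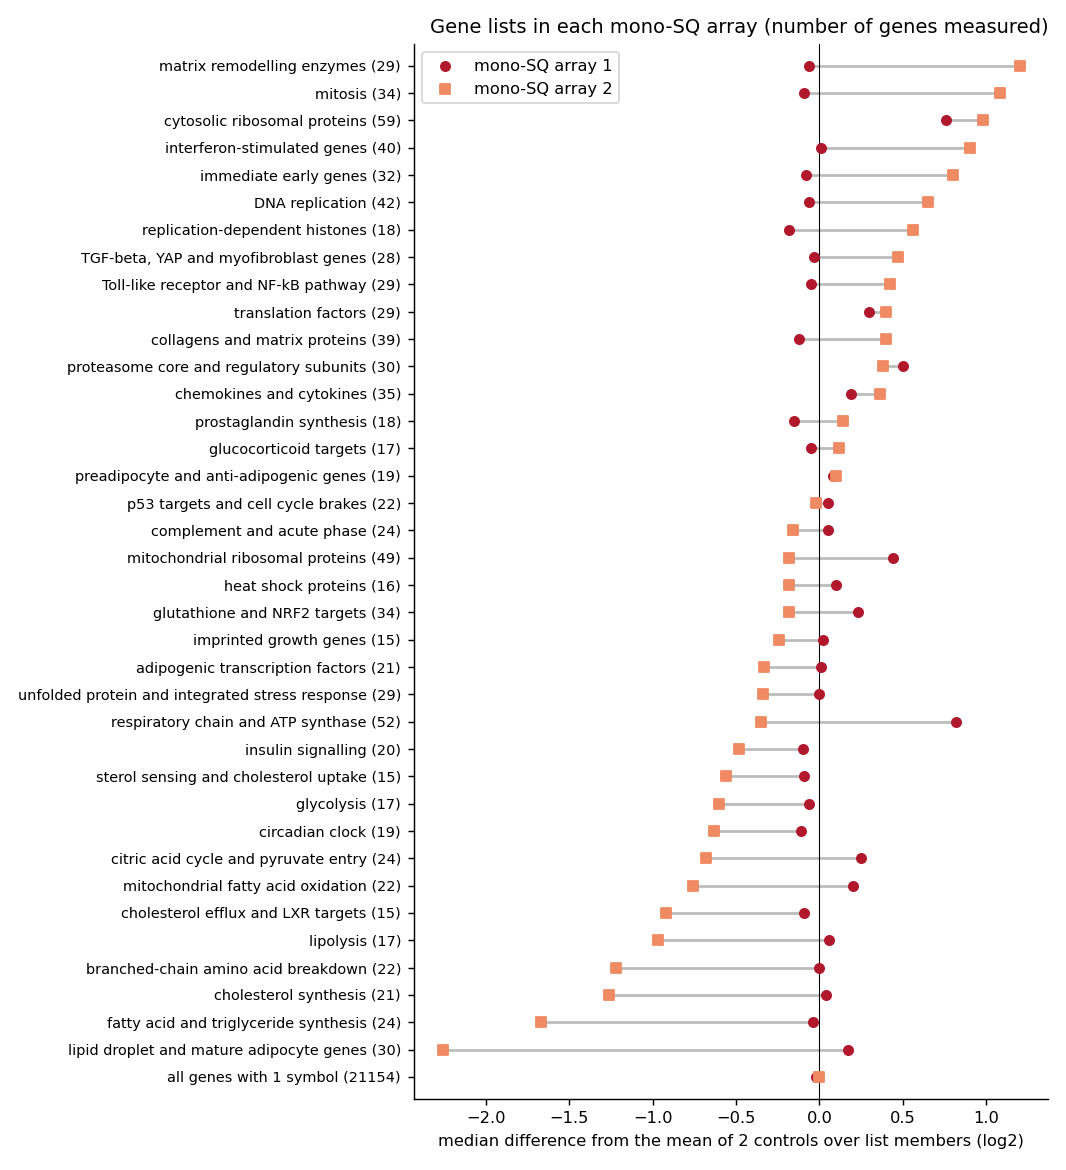
Median difference from the mean of 2 controls (log2, x axis) over the members of each of 37 gene lists, with the number of genes measured, for mono-SQ array 1 (circles) and array 2 (squares); the bottom line is all 21154 genes. Array 2 runs from -2.26 (droplet genes) to 1.20 (matrix remodelling), while array 1 lies between -0.18 and 0.82.

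The single genes furthest above control in array 2 only were Egr1, Ier2, Egr2 and Zfp36, all immediate early genes. Of 32 such genes, 13 (40.6%) were higher in array 2 only, against 3.48% of all genes, with medians of -0.08 in array 1 and 0.80 in array 2. Egr1, a zinc finger factor that answers growth factor signals within minutes, had 10.13 and 15.79 in mono-SQ, against 10.30 and 10.30 in control (2.66 ± 3.02, SE, 95% interval -4.15 to 9.47, limma adjusted p = 0.894). In the fit with a term for the second compound arrays its difference was -0.24 ± 0.21. Ier2 had 7.49 and 11.78, against 7.17 and 7.15, and Egr2, a relative of Egr1, had 8.12 and 13.01, against 8.33 and 8.46. Zfp36, which speeds the decay of cytokine messages, had 5.71 and 10.22, against 5.83 and 5.90. In each, array 2 was over 4 units above the controls, and array 1 lay below both controls for Egr1, Egr2 and Zfp36. The group differences of Egr1, Egr2 and Zfp36 turn negative without array 2, at -0.17, -0.28 and -0.16.

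Serum response factor binds the CArG box, made of CC, a stretch of A or T, and GG, in promoters of several immediate early genes. In the 250 bases before any annotated start, on either strand of this palindromic motif, it was found in 3 of 10 immediate early genes that were higher in array 2 only and had a promoter in the table (30.0%). The share was 4 of 25 (16.0%) for all immediate early genes measured, 14 of 554 (2.53%) for all genes higher in array 2 only and 252 of 16207 (1.55%) for all genes. The windows are shown because these members were higher in array 2 only, with the box in capitals. They lie at chr10:67537484-67537513 and chr10:67537787-67537816 (Egr2, plus strand, before different annotated starts), chr19:53529053-53529082 and chr19:53529063-53529092 (Dusp5, a nuclear MAP kinase phosphatase, plus strand, overlapping) and chr7:28379267-28379296 (Zfp36, minus strand).
Egr2: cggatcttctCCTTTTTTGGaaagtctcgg
Egr2: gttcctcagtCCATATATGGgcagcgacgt
Dusp5: ggggaaatacCCATATTTGGccttatatgg
Dusp5: ccatatttggCCTTATATGGgcactcacgt
Zfp36: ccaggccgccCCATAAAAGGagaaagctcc
Absence of a match in a window says only that these letters are not there.

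Mitosis and DNA replication genes had higher medians in array 2 than in array 1. Of 34 mitosis genes, 32 were higher in array 2 (median 1.08) and 12 in array 1 (median -0.09). By pattern 16 (47.1%) were higher in array 2 only and 2 (5.88%) past the limit in both, against 3.48% and 0.397% of all genes. These 2 were Cdc20, the activator of the anaphase-promoting complex (6.70 and 7.27 in mono-SQ, against 5.5 and 5.87 in control), and the phosphatase Cdc25c (5.62 and 6.25, against 4.71 and 4.52), whose signals lay near or below the negative controls. Of 42 DNA replication genes, 36 were higher in array 2 (median 0.65), among them the sliding clamp Pcna, with 13.18 and 14.36 in mono-SQ, against 12.46 and 12.49 in control. The cell cycle brakes on the p53 list did not share a direction, with medians of 0.05 and -0.02 over 22 genes. Plk2, a stress-responsive kinase on that list, had 10.55 and 13.39, against 10.77 and 10.71.

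Matrix remodelling enzymes had medians of -0.06 in array 1 and 1.20 in array 2 over 29 genes. Of these, 13 (44.8%) were higher in array 2 only, against 3.48% of all genes. Stromelysin (Mmp3, chr9:7445822-7455975) had 10.00 and 13.28 in mono-SQ, against 9.93 and 9.88 in control. Its inhibitor Timp1 was graded, with 13.17 and 14.00, against 12.19 and 12.21. Of 39 collagen and matrix protein genes, 32 were higher in array 2 (median 0.40) and 10 (25.6%) past the limit there only. Osteoglycin (Ogn) had 12.03 and 16.02 in mono-SQ, against 11.89 and 11.98 in control, the proteoglycan decorin (Dcn) had 14.45 and 16.44, against 14.10 and 14.07, and periostin (Postn) had 12.63 and 15.04, against 12.46 and 12.50. For all 3 array 2 stood alone above the other arrays. Of 28 TGF-beta, YAP and myofibroblast genes 9 (32.1%) were higher and 3 (10.7%) lower in array 2 only, against 3.48% and 4.32% of all genes. The matricellular YAP target Cyr61, now named Ccn1, had 10.85 and 14.42, against 10.76 and 10.92, while the ligand gene Tgfb2 had 8.75 and 6.82, against 9.08 and 8.99. Sulf2, which trims heparan sulfate, had 8.25 and 11.57, against 7.83 and 7.97.

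Inflammatory and interferon genes did not form 1 block. Of 40 interferon-stimulated genes, 37 were higher in array 2 (median 0.90) and 21 in array 1 (median 0.01), but the list's median signal was 6.28 and 7.34 in mono-SQ, against 6.10 and 6.17 in control, close to the negative controls. Bst2, the tetherin that holds budding virus, had 6.83 and 8.42, against 6.13 and 6.56. Xaf1 had 5.62 and 7.48, against 5.08 and 5.03. Of 35 chemokines and cytokines, 22 were higher in each array, with medians of 0.19 and 0.36. They were not all the same genes: 14 were above the control mean in both arrays, as were 6330 of all 21154 genes. The list's median signal was 5.17 and 5.28 in mono-SQ, against 5.14 and 5.03 in control, below the negative control medians. The monocyte chemokines formed a graded cluster: Ccl7 had 8.11 and 9.89 in mono-SQ, against 7.48 and 7.07 in control, and Ccl8 had 6.28 and 7.55, against 5.59 and 5.44. As for Ccl2, both arrays were above both controls and array 2 was the higher. Both controls of Ccl8 lay below their negative control medians. In the Toll-like receptor and NF-kB list, with medians of -0.05 and 0.42 over 29 genes, Tlr2 had 8.40 and 10.23, against 8.52 and 8.38, while its partner Tlr6, described above, was lower in both. The NF-kB regulator Nfkbiz had 9.44 and 12.07, against 9.50 and 9.36. The prostaglandin synthase Ptgs2 had 5.79 and 9.32 in mono-SQ, against 5.89 and 6.59 in control, so array 1 was the lowest of the 4 arrays and array 2 the highest. Its signals in mono-SQ array 1 and control array 1 lay below their negative control medians.

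Stress, complement, glucocorticoid and histone genes were measured as well. Heat shock proteins had medians of 0.10 and -0.18 over 16 genes, although the small heat shock protein Cryab was graded, with 8.62 and 9.55 in mono-SQ, against 7.85 and 7.81 in control. The unfolded protein and integrated stress response list had a median of -0.34 in array 2 over 29 genes, with 14 higher and 15 lower in array 1. Complement and acute phase genes had medians of 0.05 and -0.16 over 24 genes. Glucocorticoid targets had medians of -0.05 and 0.12 over 17 genes, and those highest in array 2 included Dusp1, a phosphatase that is also an immediate early gene (10.32 and 12.95, against 10.38 and 10.36). Replication-dependent histones had medians of -0.18 and 0.56 over 18 genes.

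In the authors' deposited table of mono-SQ against control, 0 of 22206 probe sets had a false discovery rate below 0.05, the smallest was 0.835, and 1310 had a p-value below 0.05. The authors' deposited table lists 330 probe sets with a signed fold change of 2 or more and 395 with -2 or less. Of the 330, 87 were higher in both arrays, 120 were graded, 95 were higher in array 2 only and 28 had another pattern. Of the 395, 34 were lower in both arrays, 75 were graded, 258 were lower in array 2 only, 1 was lower in array 1 only, 2 were opposite and 25 had another pattern. With a p-value below 0.05 as well, the authors' deposited table leaves 143 higher and 89 lower probe sets. Of the 143, 71 were higher in both arrays, 55 were graded, 1 was higher in array 2 only and 16 had another pattern.

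Mono-SQ and the other compounds were given at the same dose for the same time, and the 4 comparisons of mono-SQ with each of the others ask where the derivative differed from its parent and its relatives. With p-values adjusted over the 4 pairs and all probe sets (88824 tests), limma called 0 in each (0%). The smallest adjusted p was 1.0 and 520, 411, 819 and 517 probe sets had an unadjusted p below 0.05. Differences of at least 1 log2 unit numbered 54 against SQ, 43 against di-SQ, 134 against tri-SQ and 50 against tetra-SQ. Against the mean of the other 4 compounds limma called 0 probe sets (0%), with 433 at an unadjusted p below 0.05 and 9 at 1 unit or more. The nearest named genes to the threshold were the cadherin Cdh1 against SQ (a difference of 1.03), the serotonin-making enzyme Tph2 against di-SQ (0.99), the glutathione transferase Gsta4 against tri-SQ (0.86), Mad2l2, of the translesion polymerase zeta, against tetra-SQ (0.93) and Tex29 against the mean of the others (-0.65), each with a limma adjusted p of 1.0. Cdh1, Mad2l2 and Tex29 lay below the negative control medians in all arrays compared, so the sizes of these differences are uncertain.

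The intervals of Rpl6 and Rpl10a against each other compound included 0, which leaves room for a difference in either direction. Rpl6 differed between mono-SQ and SQ by 0.55 (95% interval -0.95 to 2.04), from di-SQ by 0.08 (-1.41 to 1.57), from tri-SQ by 1.39 (-0.10 to 2.88) and from tetra-SQ by -0.18 (-1.68 to 1.31). Its levels in arrays 1 and 2 were 15.34 and 15.76 with mono-SQ, 13.89 and 16.12 with SQ, 15.03 and 15.91 with di-SQ, 14.78 and 13.54 with tri-SQ and 15.84 and 15.63 with tetra-SQ, against 13.44 and 13.31 in control. SQ had a low first array, near control, and tri-SQ a low second array, while both arrays of mono-SQ, di-SQ and tetra-SQ were high. Rpl10a differed from SQ by 0.38 (95% interval -0.76 to 1.51) and from tri-SQ by 0.62 (-0.51 to 1.76). For Btf3, also higher in both mono-SQ arrays, the difference from tri-SQ was 0.79 (95% interval 0.03 to 1.55, limma adjusted p = 1.0).

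List medians against control in the other compounds are given beside those of mono-SQ, and all share the 2 controls. The droplet and adipocyte list had medians in arrays 1 and 2 of 0.17 and -2.26 with mono-SQ, -0.04 and -2.25 with SQ, 0.14 and -2.04 with di-SQ, 0.15 and -2.35 with tri-SQ, and 0.07 and -2.44 with tetra-SQ. Egr1 in the second arrays was 15.79 with mono-SQ, 15.76 with SQ, 15.76 with di-SQ, 16.07 with tri-SQ and 15.82 with tetra-SQ. The mitosis list had second array medians of 1.08 with mono-SQ, 1.3 with SQ, 1.16 with di-SQ, 0.83 with tri-SQ and 1.13 with tetra-SQ. The ribosomal list had medians of 0.76 and 0.98 with mono-SQ, 0.28 and 1.18 with SQ, 0.66 and 0.98 with di-SQ, 0.61 and 0.40 with tri-SQ, and 0.92 and 0.84 with tetra-SQ. The respiratory list had 0.82 and -0.35 with mono-SQ, 0.23 and -0.14 with SQ, 0.74 and -0.14 with di-SQ, 0.82 and -0.94 with tri-SQ, and 0.95 and -0.57 with tetra-SQ. With every compound its median was thus above 0 in array 1 and below 0 in array 2. Of the 87 probe sets higher in both mono-SQ arrays, 8 and 74 were at least 1 unit above control in arrays 1 and 2 with SQ, 33 and 75 with di-SQ, 43 and 13 with tri-SQ and 72 and 69 with tetra-SQ. Over all 22206 probe sets the counts were 331 and 1311 with SQ and 220 and 1210 with di-SQ. They were 615 and 1096 with tri-SQ and 634 and 1290 with tetra-SQ. The 87 were chosen against the same 2 controls, so part of this overlap may follow from the choice. Of the 767 probe sets higher in mono-SQ array 2 only, many were at least 1 unit above control in the other second arrays. They numbered 567 with tetra-SQ, 560 with SQ, 546 with di-SQ and 438 with tri-SQ. Of the 945 lower there only, 700 (tetra-SQ), 676 (SQ), 662 (di-SQ) and 680 (tri-SQ) were at least 1 unit below control. Over all probe sets 1308, 1178, 1124 and 1404 were, in that order. These sets too were chosen against the same 2 controls.

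**Figure D5:**
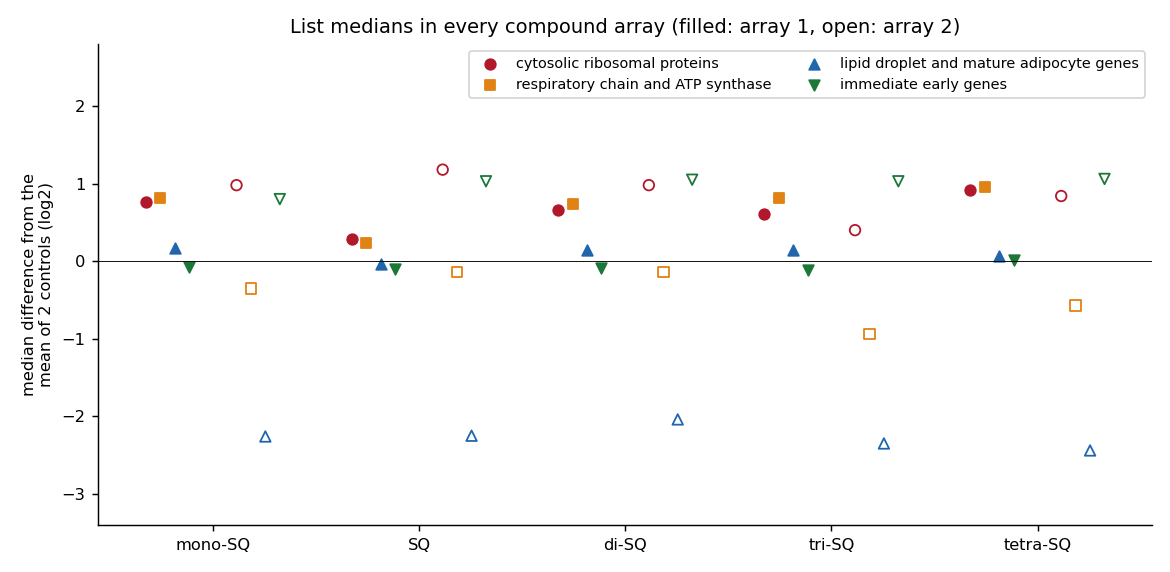
Median difference from the mean of 2 controls (log2, y axis) of 4 gene lists in arrays 1 (filled) and 2 (open) of each compound; all share the same 2 controls. Droplet and adipocyte genes lie near 0 in all first arrays and at -2.04 to -2.44 in all second arrays, and the ribosomal list is above 0 in all 10 arrays.

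Set array by array, with no control in the difference and 1 array on each side, mono-SQ and SQ differed in opposite ways by array number. In the first arrays 58 of 59 ribosomal protein genes were higher with mono-SQ than with SQ (median 0.50), and in the second arrays 9 were (median -0.18). The respiratory list followed, with 52 of 52 higher in the first arrays (median 0.61) and 11 in the second (median -0.24), and so did the proteasome list, with 29 and 4 of 30 (medians 0.49 and -0.13). Over all 21154 genes, 10385 were higher with mono-SQ than with SQ in the first arrays and 10233 in the second. Against tri-SQ the ribosomal list was higher with mono-SQ in both, with 48 and 51 of 59 (medians 0.18 and 0.68), and mitosis genes with 31 and 24 of 34 (medians 0.63 and 0.21). Of all 21154 genes, 9933 and 10375 were higher with mono-SQ than with tri-SQ. Against di-SQ and tetra-SQ the ribosomal medians were 0.11 and -0.03, and -0.15 and 0.16. None of these has a replicate within an array number, so no test was made.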

How the data were processed

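The study profiled 12 Clariom S mouse arrays of 3T3-L1 cells, 6 groups of 2. Per the design text, the authors ran SST-RMA normalization in Transcriptome Analysis Console 4.0.1. They deposited log2 signals per array (2 decimals), per the file headers, and no values from before normalization enter here. The authors also deposited a table of mono-SQ against control, with a signed fold change (a score that is negative where mono-SQ is lower) and p-values with a false discovery rate, per the file headers. Its test is not given in the sources used here. A further deposited table of log2 values of the same arrays gave the control probe sets. RMA summaries compress differences at low signals, and a log2 signal is no measure of abundance between probe sets.

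Groups and replicate numbers came from the labels. limma 3.58.1 (R 4.3.3) gave two-sided moderated tests from 1 fit over all 12 arrays, which leaves 6 residual degrees of freedom, with Benjamini-Hochberg adjustment over 22206 probe sets and a threshold of 0.05. A further fit added 1 term for the 5 second compound arrays. Patterns, lists and promoters were computed in Python 3.11.15 with pandas 2.3.3. The number of arrays limits the precision. On simulated data for mono-SQ minus control (22206 genes, 50 changed at each fold) limma called 10% of the genes changed 2-fold, 60% at 4-fold, 80% at 8-fold and 0% at 1.5-fold, and 3 genes without a change. The simulated noise was independent between arrays and left out what the second compound arrays share, so these rates may not hold for the real arrays.

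Of the probe sets, 21367 carried 1 symbol, 836 several and 3 none, and only those with 1 symbol were named. RefSeq (GRCm38.p6) held 19689 of the 21154 symbols. The 44 lists, 7 of them cell type markers, hold 1076 symbols, of which 1027 were measured, and probe sets of 1 symbol were averaged. The members, lists and fits were chosen with earlier results of these data known. Genes were named where the higher group reached the median level, excluding predicted loci. Named were up to 12 each way in both arrays with the largest smaller-array difference and no overlap (12 higher and 6 lower were named), 8 each way in array 2 only, up to 4 each way in array 1 only or opposite, up to 3 per list by size with those past the limit in both arrays, and the 3 smallest p in each comparison. Rpl29's second probe set was added after its values were seen, and so was Dusp5, for its window. Deviations of mono-SQ array 1 from array 2 correlated across probe sets with those of the other compounds at 0.621 to 0.719 and with control at 0.00244, so the replicate numbers did not pair mono-SQ with control. Alternatives were another sample set, a replicate block, the further deposited values, quantile normalization, a filter on low signals, an eBayes trend, leaving out arrays, another fold limit and the control of the same number.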

Additional observations from a re-analysis of the deposited data

How the results depend on the processing

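All 79 alternative fits called 0 probe sets in each comparison. The smallest adjusted p from limma ranged from 0.385 to 1.0 for mono-SQ against control and from 0.351 to 0.982 for the fit with a term for the second compound arrays. With the replicate number as a replicate block, mono-SQ against control gave 0 calls; the second arrays of the compounds deviate together but control array 2 does not deviate with them, so the numbers do not pair these groups. With the block over the compound arrays alone, added after seeing the data, the comparisons with the other compounds also gave 0 calls. With a limit of 1.5-fold, 661 probe sets were higher and 471 lower in both arrays, 2393 higher and 2405 lower in array 2 only, and 757 higher and 623 lower in array 1 only. After a filter on low signals, 4 were lower in both arrays, 54 higher in array 1 only and 9 lower in array 1 only. With the control of the same number, 103 were lower in array 1 only. Without a control replicate, 61 to 66 were lower in both arrays, compared with 34 over both controls, and 26 or 23 of the 34 were among them. The set higher in both arrays was steadier, with 73 to 77 of its 87 probe sets shared by the 6 alternatives at the same limit. Without mono-SQ replicate 2, the differences of Egr1, Egr2, Zfp36 and Apol6 from control were -0.17, -0.28, -0.16 and 0.04, opposite in sign to those of the group means, and without replicate 1 they were 5.49, 4.62, 4.36 and -5.34. Of the other values for single genes and lists under these alternatives, 1952 were counted as unchanged and 240 as moved. Group differences of genes counted as unchanged if direction and call held. Single-array values did so if they moved by no more than about the SD of the 2 controls. Leaving out 1 control cannot move them past that limit. List medians were allowed the SD between the medians of the 2 mono-SQ arrays, a wide limit where these differ. The count of 1952 is therefore no measure of stability. Low signals limit the set lower in both arrays, and 2 arrays a group limit every test. The cause of each change was not tested beyond what the alternative itself removes.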
